A study of Mus with 9 samples.

Results

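The transcript of p53 and 9 genes that p53 or cellular stress can switch on were followed in the aged mouse kidney. The 10 genes, chosen by name with earlier results of these data known, were Trp53, Mdm2, Ccng1, Trp53inp1, Bax, Bbc3, Phlda3, Eda2r, Gdf15 and Sesn2. They are 10 of the 54532 genes in the deposited table, and all 10 were among the 15902 genes that passed a filter on low counts. Kidney RNA from 9 male C57BL/6 mice was sequenced, 1 library a mouse, with 3 mice in each of 3 groups. All mice had 1 kidney removed (unilateral nephrectomy) at 18 months of age. Mice of the 18 mo group were killed 1 week later, the 21 mo group received saline intraperitoneally for 12 weeks, and the 21 mo/O304 group received O304 at 10 mg/kg/day by the same route over the same 12 weeks. O304 activates AMPK, the kinase that senses low cellular energy. The 18 mo mice thus differed from all others in age, in time after surgery and in having no injections, and these cannot be told apart. Only the drug was meant to differ between 21 mo and 21 mo/O304.

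p53, encoded by Trp53, is a transcription factor that responds to DNA damage, oncogene activity and other stress by switching on genes that arrest the cell cycle, repair DNA or lead to cell death. It is controlled mainly through its protein, which the ubiquitin ligase Mdm2 marks for degradation, and Mdm2 is itself a p53 target. The level of the Trp53 transcript is therefore no measure of p53 activity. Tubular cells of the injured kidney are known to use this pathway, and Gdf15 and Sesn2 are also targets of ATF4, the transcription factor of the integrated stress response.

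Libraries held 15636378 to 18396725 counts, so that 1 count was worth 0.0458 to 0.0669 CPM (counts scaled to a common library size, with TMM factors of 0.928 to 1.20). The 21 mo mice were more unlike each other than the mice of the other groups, with correlations of log2 CPM of 0.881 to 0.956 within 21 mo, 0.976 to 0.983 within 18 mo and 0.972 to 0.978 within 21 mo/O304. Proximal tubule markers were abundant, at a summed 10240 to 12900 CPM in 18 mo. In 21 mo replicates 1, 2 and 3 they summed to 10930, 5215 and 1478 CPM, while 8 markers of injured tubule summed to 1664, 14160 and 17220 CPM, against 1043 to 1136 in 18 mo and 1074 to 1576 in 21 mo/O304. Most of the injured tubule sum was Spp1, at 1235, 11160 and 12560 CPM in 21 mo replicates 1 to 3. Havcr1, another of the 8, was at 11.6, 475 and 61.2 CPM there. Replicates 2 and 3 of the 21 mo group thus stood apart from the other 7 libraries. The part of this difference in the results below was not tested. In bulk tissue, fewer cells of a type and less RNA per cell cannot be told apart.

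Eda2r, Gdf15 and Phlda3 had the largest differences between groups, and each was high in 21 mo replicates 2 and 3 and near the 18 mo level in most other libraries. Trp53, Trp53inp1 and Bbc3 were also highest in these 2 libraries, with smaller differences. Mdm2, Ccng1 and Bax did not share this pattern, and Sesn2 was high in other libraries. With all 9 libraries, 0 of the 10 genes passed an adjusted p of 0.05 in edgeR's quasi-likelihood test in any comparison. The background was low as well, since 0.0189% of all genes tested passed for 21 mo against 18 mo, and 0% did so in either comparison of the 21 mo/O304 group.

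**Figure D1:**
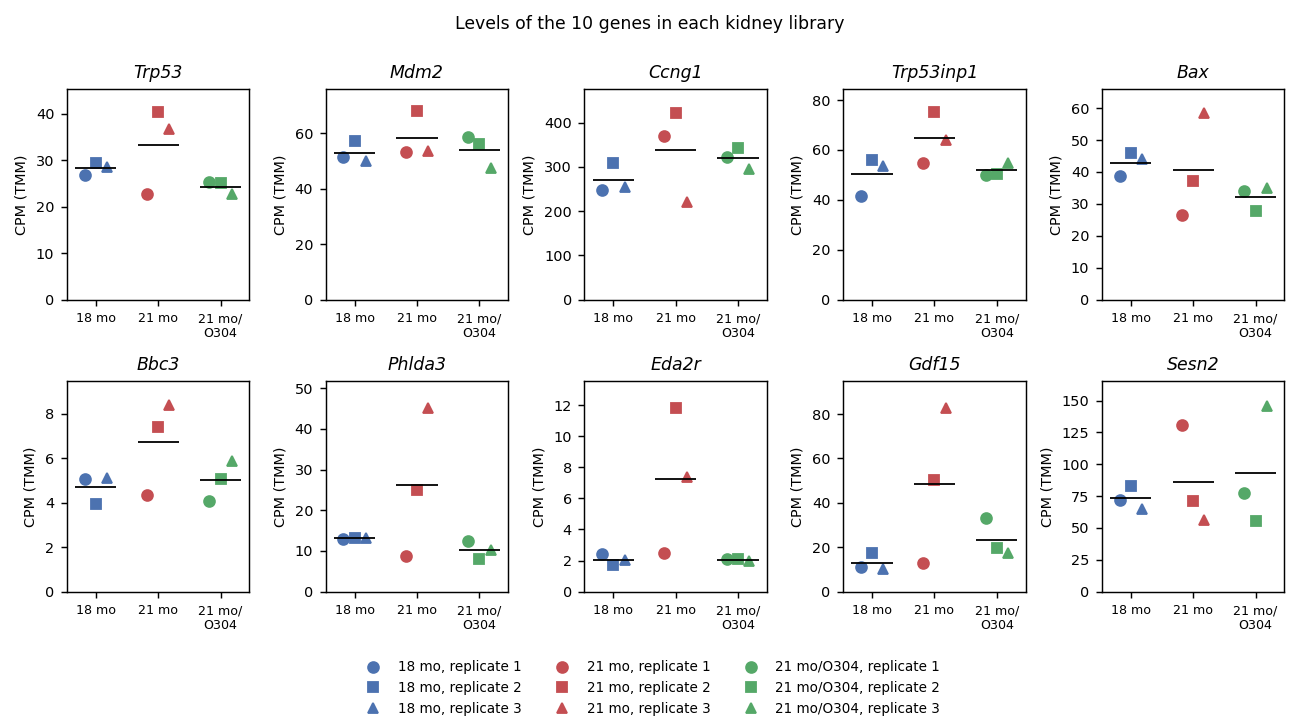
Levels of the 10 genes, in TMM-normalized CPM on linear axes from 0, in each of the 9 kidney libraries. Each point is 1 mouse, the marker shape is the replicate number and the line is the group mean. Eda2r, Gdf15 and Phlda3 are high in 21 mo replicates 2 and 3, while Sesn2 is highest in 21 mo replicate 1 and 21 mo/O304 replicate 3.

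Trp53 (ENSMUSG00000059552, chr11:69580359-69591873, plus strand, GRCm38/mm10) was at 26.9, 29.3 and 28.6 CPM in replicates 1 to 3 of 18 mo, at 22.8, 40.4 and 36.8 CPM in 21 mo, and at 25.4, 25.1 and 22.7 CPM in 21 mo/O304. In the 21 mo group, replicates 2 and 3 lay above every other library and replicate 1 lay below the whole 18 mo range. Every O304 library was below every 18 mo library, and the O304 and 21 mo groups overlapped. By edgeR the log2 fold change of Trp53 was 0.24 (SE 0.19, adjusted p = 0.446) for 21 mo against 18 mo and -0.45 (SE 0.19, adjusted p = 0.232) for 21 mo/O304 against 21 mo. Both comparisons use the same 21 mo libraries.

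Among the genes that act back on p53 or on the cell cycle, Mdm2 (chr10:117688875-117710758, minus strand) varied least. Its levels were 51.3, 57.1 and 49.9 CPM in 18 mo, 53.05, 67.9 and 53.4 CPM in 21 mo, and 58.6, 56.1 and 47.5 CPM in 21 mo/O304. The highest library was 21 mo replicate 2 and the lowest was 21 mo/O304 replicate 3, and all groups overlapped. The edgeR log2 fold changes of Mdm2 were 0.14 (SE 0.14, adjusted p = 0.53) for 21 mo against 18 mo and -0.10 (SE 0.14, adjusted p = 0.662) for 21 mo/O304 against 21 mo.

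Ccng1 (chr11:40748552-40755311, minus strand) encodes cyclin G1, an atypical cyclin that binds the phosphatase PP2A. It was at 248, 309 and 255 CPM in 18 mo, 371, 422 and 220 CPM in 21 mo, and 323, 342 and 296 CPM in 21 mo/O304. Here 21 mo replicates 1 and 2 were the highest of the 9 libraries and replicate 3 the lowest, so the replicates of one group spanned all the others. Trp53inp1 (chr4:11156431-11174379, plus strand), a nuclear stress protein that promotes p53 activity and autophagy, was at 41.4, 56.0 and 53.7 CPM in 18 mo, 54.9, 75.0 and 64.1 CPM in 21 mo, and 50.01, 50.4 and 54.9 CPM in 21 mo/O304. Its 2 highest libraries were again 21 mo replicates 2 and 3. By edgeR the log2 fold change of Trp53inp1 was 0.36 (SE 0.15, unadjusted p = 0.0421, adjusted p = 0.178) for 21 mo against 18 mo and -0.32 (SE 0.15, adjusted p = 0.262) for 21 mo/O304 against 21 mo, and that of Ccng1 was 0.32 (SE 0.24) and -0.08 (SE 0.24).

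The genes of cell death did not follow 1 pattern. Bax (chr7:45461697-45466898, minus strand), which forms pores in the outer mitochondrial membrane, was at 38.6, 45.8 and 44.0 CPM in 18 mo, 26.4, 37.1 and 58.4 CPM in 21 mo, and 33.9, 27.7 and 35.02 CPM in 21 mo/O304. The 21 mo group held both the lowest and the highest library, and all O304 libraries were below all 18 mo libraries. The log2 fold changes of Bax were -0.08 (SE 0.25) for 21 mo against 18 mo, -0.34 (SE 0.25) for 21 mo/O304 against 21 mo and -0.41 (SE 0.25, adjusted p = 0.649 by edgeR) for 21 mo/O304 against 18 mo.

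Bbc3 (chr7:16308393-16318205, plus strand) encodes PUMA, a BH3-only protein that frees or activates Bax. It was at 5.08, 3.94 and 5.09 CPM in 18 mo, 4.35, 7.39 and 8.38 CPM in 21 mo, and 4.07, 5.07 and 5.86 CPM in 21 mo/O304. Replicates 2 and 3 of 21 mo were the highest libraries, and replicate 1 lay inside the 18 mo range. By edgeR its log2 fold change was 0.51 (SE 0.29, adjusted p = 0.281) for 21 mo against 18 mo and -0.43 (SE 0.29, adjusted p = 0.39) for 21 mo/O304 against 21 mo.

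Phlda3 (chr1:135766119-135769136, plus strand), a p53 target that blocks Akt by competing for membrane lipids, was the steadiest of the 10 genes in the 18 mo mice, at 12.9, 13.1 and 13.1 CPM (mean 13.1 ± 0.104, SD, n = 3). In 21 mo it was at 8.83, 24.9 and 45.2 CPM (26.3 ± 18.2), and in 21 mo/O304 at 12.4, 7.99 and 10.3 CPM (10.2 ± 2.23). Replicate 1 of 21 mo was thus below all 18 mo libraries while replicates 2 and 3 were far above them, and the O304 libraries all lay below the 18 mo range. By edgeR the log2 fold change of Phlda3 was 1.01 (SE 0.47, adjusted p = 0.205) for 21 mo against 18 mo, -1.36 (SE 0.47, unadjusted p = 0.0176, adjusted p = 0.188) for 21 mo/O304 against 21 mo, and -0.35 (SE 0.47, adjusted p = 0.861) for 21 mo/O304 against 18 mo.

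Eda2r (ENSMUSG00000034457, chrX:97333840-97377216, minus strand) encodes a receptor of the TNF receptor family that binds the ectodysplasin isoform EDA-A2. It had the fewest reads of the 10 genes, with 28 to 208 counts a library. Its levels were 2.42, 1.73 and 2.04 CPM in 18 mo (2.06 ± 0.346, SD, n = 3), 2.48, 11.8 and 7.38 CPM in 21 mo (7.22 ± 4.67), and 2.09, 2.09 and 1.97 CPM in 21 mo/O304 (2.05 ± 0.0671). It was the only member whose 21 mo libraries all lay above the 18 mo libraries and above the O304 libraries. For 21 mo replicate 1 the margin over the highest 18 mo library was under the worth of 1 count, with 37 counts against 39 before scaling. By edgeR the log2 fold change of Eda2r was 1.81 (SE 0.49, unadjusted p = 0.0048, adjusted p = 0.0834) for 21 mo against 18 mo and -1.82 (SE 0.49, unadjusted p = 0.00473, adjusted p = 0.175) for 21 mo/O304 against 21 mo. The O304 and 18 mo means were nearly equal, with a log2 difference of -0.01 whose SE was 0.49.

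Gdf15 (ENSMUSG00000038508, chr8:70629393-70632456, minus strand) encodes a stress hormone of the TGF-beta family that acts on the brainstem through the receptor GFRAL. It was at 11.3, 17.5 and 10.1 CPM in 18 mo (12.9 ± 3.99, SD, n = 3), at 12.7, 50.4 and 82.6 CPM in 21 mo (48.6 ± 34.98), and at 33.03, 19.7 and 17.4 CPM in 21 mo/O304 (23.4 ± 8.44). The O304 libraries were intermediate, above 21 mo replicate 1 and below 21 mo replicates 2 and 3, and their lowest value lay just under the highest of 18 mo. By edgeR the log2 fold change of Gdf15 was 1.91 (SE 0.58, unadjusted p = 0.00902, adjusted p = 0.0957) for 21 mo against 18 mo, -1.06 (SE 0.56, adjusted p = 0.298) for 21 mo/O304 against 21 mo and 0.85 (SE 0.57, adjusted p = 0.669) for 21 mo/O304 against 18 mo.

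Sesn2 (chr4:132492032-132510501, minus strand) encodes a sestrin, a leucine sensor that restrains mTORC1 and is linked to AMPK, the target of O304. It was at 71.8, 82.9 and 65.1 CPM in 18 mo, 131, 71.2 and 56.3 CPM in 21 mo, and 77.5, 55.8 and 146 CPM in 21 mo/O304. The high libraries were 21 mo replicate 1 and 21 mo/O304 replicate 3, while 21 mo replicate 2 lay inside the 18 mo range and replicate 3 below it. By edgeR the log2 fold change of Sesn2 was 0.23 (SE 0.39, adjusted p = 0.725) for 21 mo against 18 mo and 0.11 (SE 0.39, adjusted p = 0.879) for 21 mo/O304 against 21 mo.

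**Figure D2:**
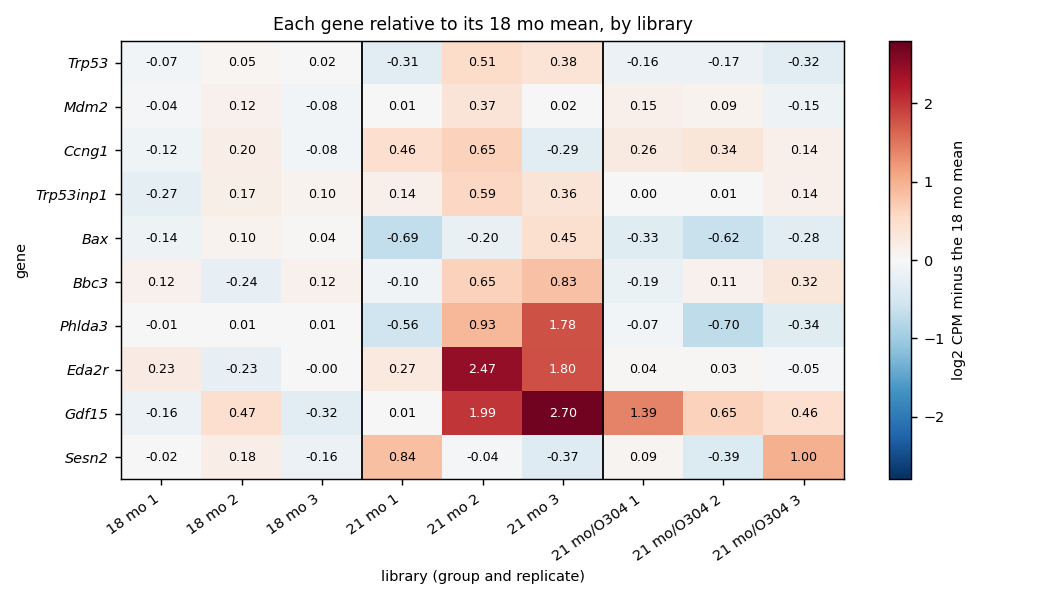
Level of each gene in each library relative to that gene's 18 mo mean, as a difference in log2 CPM (red above, blue below). The columns of 21 mo replicates 2 and 3 hold the largest values, 2.47 and 1.80 for Eda2r and 1.99 and 2.70 for Gdf15, while 21 mo replicate 1 holds 0.27 and 0.01.

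Counted by library, 21 mo replicate 2 had 8 of the 10 genes above the highest 18 mo library and 1 below the lowest, and replicate 3 had 7 above and 2 below. Replicate 1 of 21 mo had 3 above and 3 below. The 21 mo/O304 libraries had 3, 2 and 2 above and 3, 4 and 4 below. Over all 15902 genes, 31.1%, 37.3% and 41.3% were above the 18 mo range in 21 mo replicates 1, 2 and 3 and 33.4%, 36.1% and 40.5% below it, and in the O304 libraries 30% to 32.3% were above and 30.4% to 32.5% below. The median of the 10 genes against their 18 mo means, on the log2 scale, was 0.01, 0.62 and 0.42 in 21 mo replicates 1, 2 and 3 and 0.02 to 0.05 in the O304 libraries.

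The injured tubule markers, 8 genes of which all 8 had a higher mean in 21 mo than in 18 mo, separated the same libraries. Eda2r, Phlda3 and Gdf15 were highest in the 2 libraries where these markers summed to 14160 and 17220 CPM, and among the other 7 libraries, where the markers summed to 1043 to 1664 CPM, Eda2r stayed between 1.73 and 2.48 CPM and Phlda3 between 7.99 and 13.1 CPM. Gdf15 ranged more widely in those 7 libraries, from 10.1 to 33.03 CPM. Macrophage markers summed to 769, 1220 and 3688 CPM in 21 mo replicates 1 to 3, against 308 to 522 in 18 mo, and fibroblast markers to 164, 605 and 1513 CPM, against 206 to 310. No marker of these 3 lists was at 0 in a group. Markers of proliferating cells summed to 12.3, 91.6 and 53.2 CPM in 21 mo replicates 1 to 3, against 20.1 to 32.9 in 18 mo and 14.1 to 21.6 in 21 mo/O304. Adipocyte markers summed to 283, 110 and 241 CPM with O304, against 129, 55.01 and 35.3 CPM in 21 mo. In 18 mo they summed to 46.2 to 90.5 CPM. The sum in 21 mo/O304 replicate 2 lay below that in 21 mo replicate 1. Most of the sum in every library was Fabp4, whose O304 and 21 mo libraries overlapped. The other 4 of the 5 tested had O304 libraries all above those of 21 mo. The share of all genes that did so was not counted. Of the adipocyte list, Lep was at 0 in the 21 mo group. The part of these cells in the levels of the 10 genes was not tested.

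**Figure D3:**
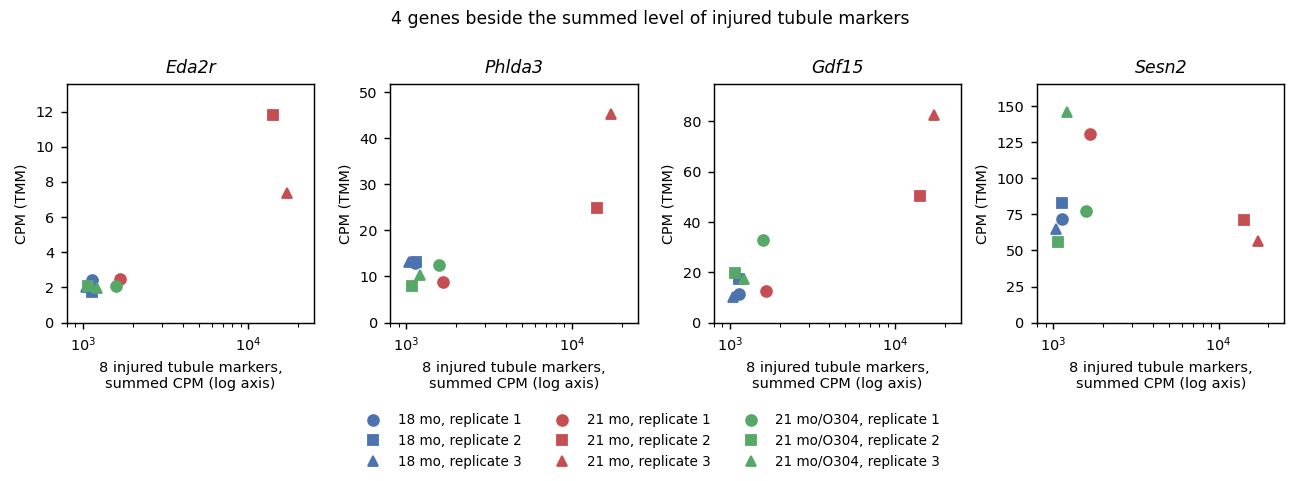
Levels of 4 of the genes (linear axis, TMM-normalized CPM) beside the summed CPM of 8 injured tubule markers (log axis), 1 point a library. Most of the sum is Spp1. The 2 points at the right are 21 mo replicates 2 and 3, at 14160 and 17220 CPM, where Eda2r, Phlda3 and Gdf15 are at their highest and Sesn2 is at 71.2 and 56.3 CPM.

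Compared with 18 mo, 9 of the 10 genes had a higher mean in 21 mo and Bax a lower one. At an unadjusted p of 0.05 in edgeR, 3 of the 10 were higher (Gdf15, Eda2r and Trp53inp1) and 0 lower, where 14% of all genes tested were higher and 12% lower. The libraries of 1 gene, Eda2r, did not overlap, as for 13.5% of all genes in the upward direction. The median log2 fold change was 0.34, beside 0.03 over all genes tested.

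The count for 21 mo against 18 mo depended on single libraries. Without 21 mo replicate 1, 5 of the 10 passed an adjusted p of 0.05 by edgeR, where 13.6% of all genes passed upward. These were Gdf15 at a log2 fold change of 2.38 (adjusted p = 0.00505), Eda2r at 2.23 (adjusted p = 0.00398), Phlda3 at 1.44 (adjusted p = 0.0086), Trp53inp1 at 0.48 (adjusted p = 0.046) and Trp53 at 0.46 (adjusted p = 0.024). With any other library left out, 0 of the 10 passed. The log2 fold change of Eda2r was 1.25 without 21 mo replicate 2, that of Gdf15 1.27 without replicate 3, and that of Phlda3 0.36 without replicate 3. DESeq2, with all libraries, called Gdf15 (adjusted p = 0.0109) and Eda2r (adjusted p = 0.00795), 2 of the 10, where 6.59% of genes passed upward.

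**Figure D4:**
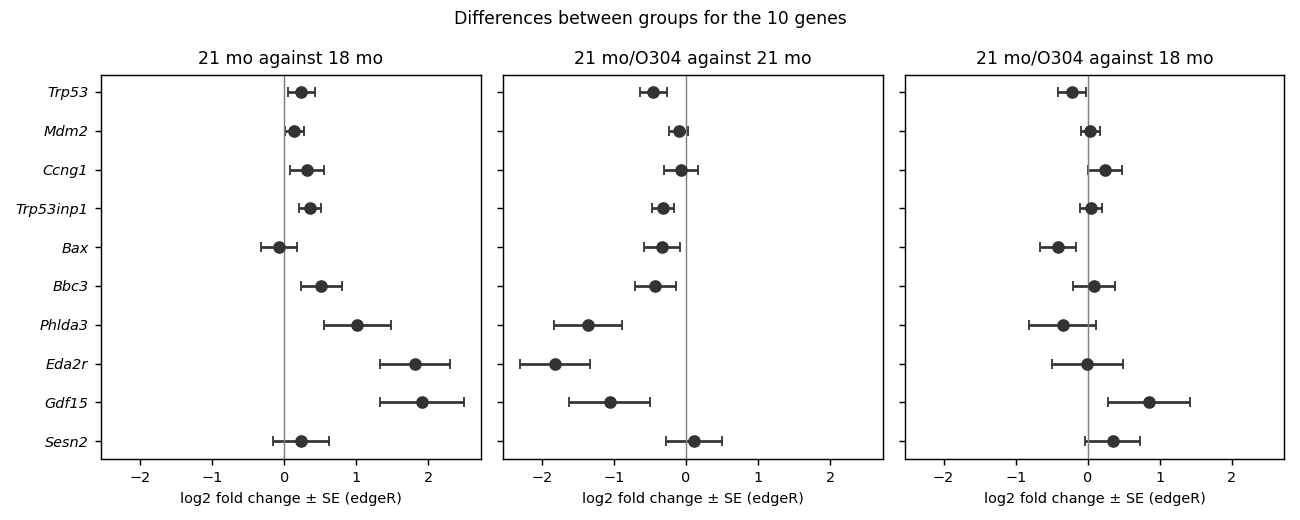
Log2 fold changes of the 10 genes in the 3 comparisons, from edgeR fitted to all 9 libraries. Points are estimates, bars are 1 standard error to each side and the grey line marks no difference. Gdf15 (1.91) and Eda2r (1.81) lie farthest to the right for 21 mo against 18 mo, Eda2r (-1.82) and Phlda3 (-1.36) farthest to the left for 21 mo/O304 against 21 mo, and no gene passed an adjusted p of 0.05.

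For 21 mo/O304 against 21 mo, which asks what the drug changed, 9 of the 10 genes had a lower mean in the treated mice and Sesn2 a higher one. At an unadjusted p of 0.05, 3 were lower (Trp53, Phlda3 and Eda2r) and 0 higher, where 12.4% of all genes were lower and 8.27% higher. Eda2r was the 1 gene without overlap, a state that 10.5% of all genes shared in the downward direction. The median log2 fold change was -0.38, beside -0.02 over all genes, and was -0.62 without 21 mo replicate 1. Since the 21 mo libraries enter both comparisons, the signs of the 2 comparisons are not independent.

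Here too 21 mo replicate 1 decided the count. Without it, 4 of the 10 passed by edgeR, where 12.6% of all genes passed downward, namely Eda2r at -2.23 (adjusted p = 0.00532), Phlda3 at -1.78 (adjusted p = 0.00681), Gdf15 at -1.51 (adjusted p = 0.0192) and Trp53 at -0.67 (adjusted p = 0.00991). With any other library left out, 0 passed. The log2 fold change of Gdf15 was -0.43 without 21 mo replicate 3, and those of Phlda3 and Eda2r were -0.71 without replicate 3 and -1.26 without replicate 2. DESeq2 called 1 gene, Eda2r (adjusted p = 0.0144), where 3.65% of genes passed downward.

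Limma voom with a weight for each library called 8 of the 10 genes, all but Sesn2 and Bax, both as higher in 21 mo than in 18 mo and as lower in 21 mo/O304 than in 21 mo. With these weights 26.3% and 19.8% of all genes passed in those directions. The weights of 21 mo replicates 1, 2 and 3 were 0.223, 9.11 and 0.132, so the 21 mo level in that fit rested on replicate 2.

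Between 21 mo/O304 and 18 mo, 6 of the 10 genes had a higher and 4 a lower mean in 21 mo/O304, with a median log2 fold change of 0.04, beside 0.003 over all genes. None had an unadjusted p under 0.05, where 9.66% of all genes did. The spread in this test was estimated over all 3 groups, so it includes that of the 21 mo mice. The O304 libraries of Trp53, Bax and Phlda3 all lay below those of 18 mo, 3 of the 10 where 13.3% of all genes did so. For Phlda3 the margin was narrow, with 12.4 CPM (214 counts) in 21 mo/O304 replicate 1 against 12.9 CPM (209 counts) in 18 mo replicate 1. Trp53 differed by -0.22 on the log2 scale (SE 0.19, adjusted p = 0.772 by edgeR). None of the 18 alternatives run brought any of the 10 genes past the threshold in this comparison.

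Per length, in FPKM (fragments scaled to gene length and to library size), the order of the genes in 18 mo ran from Ccng1 at 74.8, then Bax at 26.4, Sesn2 at 20.5 and Mdm2 at 10.1, to Bbc3 at 2.15 and Eda2r at 0.339. Between Mdm2 and Bbc3 stood Phlda3 at 8.13, Trp53inp1 at 7.55, Gdf15 at 6.80 and Trp53 at 6.79, whose neighbouring ranges overlapped. In 21 mo Gdf15 held the second place at 25.3 FPKM, but its libraries ran from 6.65 to 42.9 and overlapped those of Bax (16.2 to 35.6). In 21 mo/O304 Sesn2 stood second at 26.0 FPKM, with a range of 15.6 to 40.7, and Gdf15 came after Bax at 12.2 FPKM. Ccng1 was first and Eda2r last in every group.

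The wider p53 pathway was followed in 30 other p53 targets, of which 28 passed the filter. This list and those that follow were also chosen with earlier results of these data known. Their counts beside the shares of all genes are therefore descriptions and no test of the lists. For 21 mo against 18 mo, 18 had a higher and 10 a lower mean, 0 passed the adjusted p by edgeR, and the median log2 fold change was 0.20. At an unadjusted p of 0.05, 9 of the 28 were higher and 2 lower, where 14% of all genes were higher and 12% lower, shares that also stand behind the counts of the lists that follow. Cdkn1a, which encodes the cell cycle inhibitor p21, was at 11.2, 10.04 and 16.4 CPM in 18 mo, 24.0, 44.3 and 79.8 CPM in 21 mo, and 15.7, 12.2 and 14.96 CPM in 21 mo/O304. All its 21 mo libraries were above all others, and its log2 fold changes were 1.98 (adjusted p = 0.0626 by edgeR) and -1.79 (adjusted p = 0.175). Btg2, an antiproliferative gene, was at 1.47 (adjusted p = 0.0836 by edgeR), Sesn1, another sestrin, at 0.60 (adjusted p = 0.0792) and the kinase gene Plk2 at 0.55 (adjusted p = 0.11). In the comparison of 21 mo/O304 with 21 mo, 18 of the 28 had a lower mean, 5 were lower at an unadjusted p of 0.05, where 12.4% of all genes were, and the median was -0.12. Without 21 mo replicate 3 the medians of the 2 comparisons were 0.12 and -0.02, and without replicate 1 the second was -0.18.

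Of 18 regulators and relatives of p53, 16 were tested. For 21 mo against 18 mo 11 had a higher mean, 4 were higher at an unadjusted p of 0.05 and the median was 0.12, and for 21 mo/O304 against 21 mo 12 had a lower mean and the median was -0.11. The 4 were Trp63, which encodes the p53 relative p63 (log2 fold change 2.58, adjusted p = 0.0885 by edgeR, at 0.283 to 0.867 CPM in 18 mo), the ubiquitin ligase gene Cop1 (0.40, adjusted p = 0.0942), the acetyltransferase gene Kat5 (0.31, adjusted p = 0.157) and Trp53bp1 (0.46, adjusted p = 0.162). Between 21 mo/O304 and 21 mo, 1 gene was lower and 1 higher at an unadjusted p of 0.05, where 12.4% of all genes were lower and 8.27% higher. These were Trp63 at -2.62 (adjusted p = 0.175 by edgeR), whose O304 libraries all lay below those of 21 mo, and the deacetylase gene Sirt1 at 0.31 (adjusted p = 0.219). The median for 21 mo against 18 mo was 0.03 without 21 mo replicate 2 and 0.19 without replicate 3, and the other median was -0.22 without 21 mo replicate 3 and -0.22 without 21 mo/O304 replicate 2.

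ATF4 and its targets had, with all libraries, the largest median of the related lists. Of 17 tested, 16 had a higher mean in 21 mo than in 18 mo, with a median of 0.91. At an unadjusted p of 0.05, 10 were higher and 1 was lower. The lower gene was Shmt2, at -1.04 (adjusted p = 0.153 by edgeR), with all its 21 mo libraries below those of 18 mo. Asns, asparagine synthetase, was at 4.34, 3.14 and 2.66 CPM in 18 mo and at 5.75, 11.1 and 15.7 CPM in 21 mo (log2 fold change 1.69, adjusted p = 0.0631 by edgeR). The folate enzyme gene Mthfd2 was at 1.46 (adjusted p = 0.0789), Chac1, which degrades glutathione, at 1.20 (adjusted p = 0.0922) and the stress transcription factor gene Atf3 at 2.25 (adjusted p = 0.093). In 21 mo/O304 against 21 mo, 16 of 17 had a lower mean and the median was -0.83. At an unadjusted p of 0.05, 8 were lower and 1 was higher, where 12.4% of all genes were lower and 8.27% higher. The higher gene was again Shmt2, at 0.998 (adjusted p = 0.219 by edgeR), with all its O304 libraries above those of 21 mo. Without 21 mo replicate 3 the medians were 0.33 and -0.42, and the first of these was then level with that of the relatives described below, also 0.33. Atf4 itself was at 90.7, 143 and 148 CPM in 21 mo and 79.1, 82.4 and 83.0 CPM in 21 mo/O304, with a log2 fold change of -0.64 (adjusted p = 0.175 by edgeR). Within 21 mo, Atf4 and Asns were lowest in replicate 1, the replicate in which Sesn2, itself a target of ATF4, was highest. Chac1, Psat1 and Ppp1r15a of the list were lowest in replicate 2, and Shmt2 was highest in replicate 1. The part of ATF4 in the level of Sesn2 was not tested.

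Among the BCL2 family, which holds Bax and its partners, 9 of 14 tested genes had a higher mean in 21 mo than in 18 mo, with a median of 0.23, and 3 were higher and 2 lower at an unadjusted p of 0.05. Bak1, another pore former, was at 11.8, 20.0 and 32.3 CPM in 21 mo and 8.67, 9.54 and 10.4 CPM in 21 mo/O304. Its log2 fold changes were 0.93 (adjusted p = 0.124 by edgeR) for 21 mo against 18 mo and -1.17 (adjusted p = 0.175) for 21 mo/O304 against 21 mo. The survival gene Bcl2l2 was at -0.48 (adjusted p = 0.107 by edgeR) and the survival gene Mcl1 at 0.46 (adjusted p = 0.176) for 21 mo against 18 mo. The BH3-only gene Pmaip1, which encodes NOXA, was at 1.17 (adjusted p = 0.14). The median of the family was -0.09 in 21 mo/O304 against 21 mo, but 0.02 without 21 mo replicate 3, -0.16 without 21 mo replicate 1 and -0.15 without 21 mo/O304 replicate 3, and without 21 mo replicate 3 that for 21 mo against 18 mo was 0.11.

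Of 11 relatives and partners of the 10 genes, 8 were tested, with a median of 0.33 in the comparison of 21 mo with 18 mo and one of -0.05 in that of 21 mo/O304 with 21 mo. Eda, which encodes the ligand of Eda2r, was at 1.05, 1.23 and 1.19 CPM in 18 mo, 0.937, 2.27 and 3.53 CPM in 21 mo, and 1.40, 1.01 and 1.15 CPM in 21 mo/O304. Its highest libraries were those of Eda2r, and its log2 fold change was 0.96 (adjusted p = 0.221 by edgeR). Sesn3 was at 0.45 (adjusted p = 0.122 by edgeR) and Phlda2 at -0.82 (adjusted p = 0.134). The first median was 0.62 without 21 mo replicate 1, where 9 genes passed the filter, and 0.19 without replicate 2, where 8 did. The second ran from -0.34 to -0.15 without any 1 of the 18 mo or O304 libraries or 21 mo replicate 1, each time over 9 genes. Without 21 mo replicate 2 or 3, over 8 genes, the second was -0.068 and -0.069. The part of the changed gene set in these shifts was not tested. The receptor genes of Gdf15, Gfral and Ret, did not pass the filter on low counts.

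**Figure D5:**
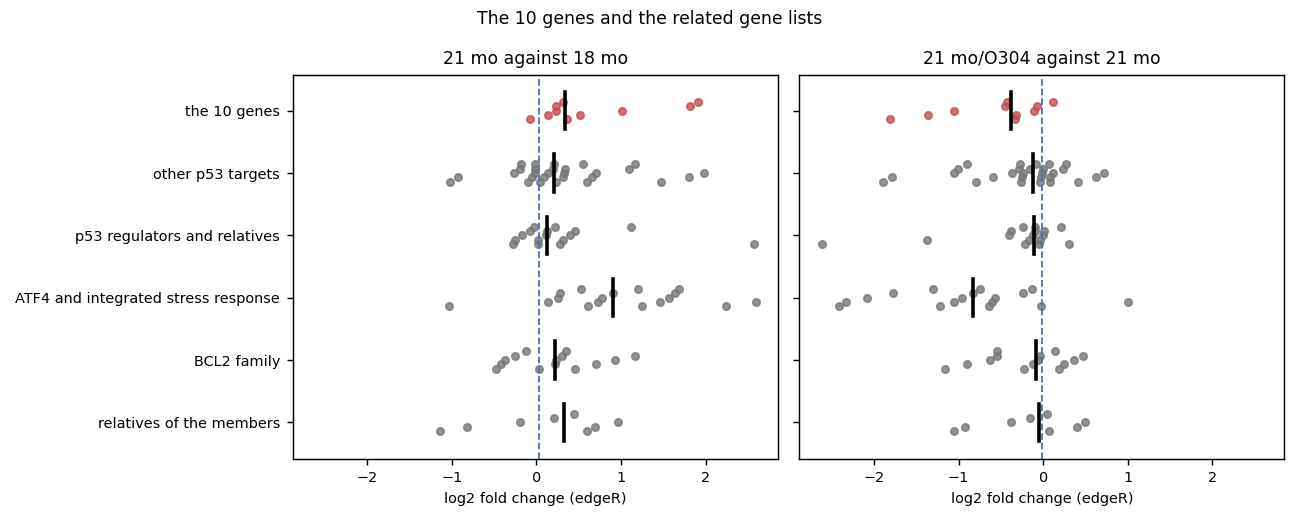
Log2 fold changes (edgeR, 9 libraries) of the 10 genes and of each tested gene in 5 related lists, in 2 comparisons (21 mo with 18 mo on the left, 21 mo/O304 with 21 mo on the right). Each point is a gene, the black bar is the list's median and the dashed line is the median over all 15902 genes. The medians of the ATF4 list, 0.91 and -0.83, lie farthest from the dashed line, and those of the 10 genes are 0.34 and -0.38.

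With all 9 libraries no gene of the 5 related lists passed an adjusted p of 0.05 by edgeR, while DESeq2 called 3 of 29 other p53 targets, 1 of 17 p53 regulators, 7 of 18 in the ATF4 list, 0 of 14 in the BCL2 family and 2 of 10 relatives as higher in 21 mo than in 18 mo, where it called 6.59% of all genes. It called 1, 1, 5, 1 and 0 genes of these lists, in the same order, as lower in 21 mo/O304 than in 21 mo, where it called 3.65% of all genes. Among the genes called higher in 21 mo, Slc7a11 of the ATF4 list and Tnfrsf19 of the relatives had not passed the filter on low counts. They were at 5.63 and 6.69 CPM in 21 mo replicate 3 and at most 0.625 and 0.682 CPM in every other library. The other relative called, Sesn1, was also 1 of the 3 other p53 targets called. By edgeR 21 mo replicate 1 again decided the counts. Without it, the 21 mo group held only replicates 2 and 3, the 2 libraries high in injured tubule markers. The genes of the other p53 targets that then passed by edgeR for 21 mo against 18 mo were 7 higher and 2 lower of 28. Those of the ATF4 list were 14 higher and 1 lower of 18, and those of the BCL2 family 3 higher and 2 lower of 14. The p53 regulators had 2 higher and 0 lower of 16 and the relatives 4 higher and 1 lower of 9. Over all genes, 13.6% were higher and 11.9% lower. The counts for 21 mo/O304 against 21 mo were 2 higher and 6 lower, 1 higher and 12 lower, 3 higher and 3 lower, 0 higher and 3 lower, and 0 higher and 4 lower in the same order, where 10.6% of all genes were higher and 12.6% lower.

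The genes whose levels over the 9 libraries were most like each of the 10 were found among 13906 protein-coding genes by the root-mean-square difference of log2 CPM, each gene centred on its own mean. Eda2r was nearest to Lhfpl2 (0.221), Klf6 (0.249) and Gm6169 (0.258), set against its own SD over the libraries of 0.894. Genes near Phlda3 included Serinc2 (0.174) and Lypd6b (0.19), and Gdf15 was nearest to Calml3 (0.323), Nt5c1a (0.351) and Slitrk4 (0.359). Trp53 was nearest to Traf2 (0.0914), Mdm2 to Polh (0.0477), and Sesn2 to Zfp763 (0.209). Among the 10 themselves, Phlda3 was the nearest to Eda2r (0.52) and to Gdf15 (0.578), Trp53inp1 the nearest to Trp53 (0.196) and to Mdm2 (0.189), and Ccng1 the nearest to Sesn2 (0.463). For Mdm2 and Sesn2 these distances were larger than the gene's own SD over the libraries (0.142 and 0.462). These distances describe likeness in these 9 libraries only.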

How the data were processed

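The authors sequenced kidney RNA from 9 mice, 1 library a mouse and 3 mice a group. Per the submitters' processing notes, reads were aligned with HISAT2 2.0.5 to GRCm38/mm10 and counted on genes with featureCounts 1.5.0-p3. The deposited counts are whole numbers per gene without normalization, and the deposited FPKM values are the authors' counts scaled to gene length and library size. Strandedness and the handling of multi-mapping reads are not given in the sources used here, so genes with near-identical copies are uncertain. Sesn2 and Bax overlap other annotated genes, Gm12981 with at most 4 counts a library and Gm45808 with 0. The table also holds the authors' DESeq2 fold changes, p-values and group means, which were not used. Coordinates were taken from the same table.

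Of 54532 genes, 15902 passed filterByExpr (minimum count 10, minimum total 15). Libraries were TMM-normalized and edgeR 4.0.16 (R 4.3.3) quasi-likelihood tests used all 9 libraries and a mean for each of 3 groups (6 residual degrees of freedom), two-sided with Benjamini-Hochberg adjustment over all genes tested. Log2 CPM used a prior count of 2. The p-values set each difference against the spread between mice, estimated for each gene over all 3 groups together. That spread was wider in 21 mo (biological coefficient of variation 44%) than in 18 mo (18%) or 21 mo/O304 (20.6%), which the shared estimate does not take into account. The fewest counts behind a value of the 10 genes were 28. The test was tried on simulated counts that had the same spread per gene in all 9 libraries. That trial cannot show how the test behaves when 1 group is wider, as 21 mo was here. The 10 members and the related lists were chosen with earlier results of these data known. Genes named are the members, up to 4 genes of each related list with the smallest p-values in a contrast, and for each member the nearest 3 protein-coding genes, of which a part is printed. Some further genes of the lists are named where a sentence rests on them. A result that needs 1 withheld item is not reported here. Genes of the marker lists were summed as CPM.

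Alternatives were DESeq2 1.42.0, upper-quartile normalization, a filter of at least 1 count in any library or of at least 10 in each, a fit to the 6 libraries of a comparison alone, a replicate block, limma 3.58.1 voom with a quality weight for each library, limma-trend on log2(FPKM + 1) and log2(FPKM + 0.1) (mean FPKM at least 0.5), and leaving out each library in turn. Sequences were not used here.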

Additional observations from a re-analysis of the deposited data

How the results depend on the processing

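Over 18 alternatives and 10 genes, the direction of the log2 fold change was kept in 177 of the values for 21 mo against 18 mo and turned in 3, kept in 174 and turned in 6 for 21 mo/O304 against 21 mo, and kept in 168 and turned in 12 for 21 mo/O304 against 18 mo. No gene that turned had a log2 fold change over 0.344 in size by edgeR with all libraries. Eda2r, Gdf15, Phlda3, Trp53, Bbc3 and Trp53inp1 kept their direction in every alternative for the first 2 comparisons. With single libraries left out, 21 mo against 18 mo ran from -0.184 to 0.447 for Sesn2, -0.45 to 0.173 for Bax and -0.003 to 0.217 for Mdm2. For 21 mo/O304 against 21 mo the ranges were -0.182 to 0.029 for Mdm2, -0.299 to 0.121 for Ccng1, -0.377 to 0.533 for Sesn2 and -0.576 to 0.031 for Bax. The ranges for 21 mo/O304 against 18 mo were -0.117 to 0.123 for Eda2r, -0.084 to 0.123 for Trp53inp1, -0.029 to 0.217 for Bbc3, -0.023 to 0.134 for Mdm2 and -0.123 to 0.612 for Sesn2. Eda2r, at -0.01 there, was also at 0.014 with upper-quartile normalization, 0.004 with every gene of at least 1 count, 0.023 with voom weights and 0.004 with limma-trend on log2(FPKM + 0.1).

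Members called numbered 0 by edgeR and, for 21 mo against 18 mo, 2 by DESeq2, 8 with voom weights and 0 to 5 with a library left out. In 21 mo/O304 against 21 mo they numbered 1, 8 and 0 to 4. Over all genes, edgeR called 3 for 21 mo against 18 mo, DESeq2 2023, voom weights 8409, edgeR on every gene with at least 1 count 576, edgeR on the 6 libraries compared 0, and 0 to 4186 with a library left out. For 21 mo/O304 against 21 mo, where edgeR called 0 and 3289 genes had an unadjusted p under 0.05, DESeq2 called 896, voom weights 6528, edgeR on every gene with at least 1 count 17, and 0 to 3808 were called with a library left out. For 21 mo/O304 against 18 mo, with 0 called and 1536 under an unadjusted p of 0.05, DESeq2 called 118, voom weights 415, edgeR on the 6 libraries compared 22, and 0 to 12 were called with a library left out. The cause of these differences was not tested. With the replicate number as a block, 0 genes were called in every comparison. Deviations of same-numbered libraries from their group means correlated at -0.13 to 0.175, and in the 3 comparisons 4, 3 and 3 of 6 libraries correlated best with their own number, so the numbers were not taken as pairs. A difference in a gene with the counts of Eda2r (28 to 208 a library) has more counting error than in the other genes, and the spread between the 3 mice of 21 mo (biological coefficient of variation 44%, against 18% in 18 mo and 20.6% in 21 mo/O304) limits all 10.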
